A study of Caenorhabditis elegans with 2 samples.

Results

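The genes described here are 9 genes of everyday protein folding and turnover in Caenorhabditis elegans: hsp-1, hsp-3, hsp-4, hsp-6, hsp-60, hsp-90, hsp-110, cdc-48.1 and cdc-48.2. They were chosen by name from 19985 protein-coding genes, with their signals and ranks in these data already known. A candidate region was assigned to a gene when its summit lay within 1000 bp of an annotated 5′ end or inside the gene body. Signals, ranks and counts of these genes are therefore descriptions, given without a test.

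The experiment was a chromatin immunoprecipitation with sequencing (ChIP-seq) of HPL-2, an HP1-family chromatin protein, in whole L1 larvae of mixed sex that were starved after bleaching. The 2 libraries were biological replicates 1 and 3 of 1 group, with a labelled size range of 150 to 350. The strain, YL474, carried lin-35(n745), unc-119(ed3) and the array vrIs64, in which the ges-1 promoter drives HPL-2 fused to GFP and FLAG and unc-119(+) serves as marker. Both libraries therefore share the lin-35 allele and the transgene. The ges-1 promoter is intestinal, the chromatin came from the whole animal, and the labels name both the tagged fusion and hpl-2 as target, so the epitope that was pulled down is uncertain. The region lists hold no read counts, so depth is unknown, and no control library was analysed here.

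Chaperones bind unfolded protein chains and release them in cycles of ATP hydrolysis. The Hsp70 family works in each compartment: HSP-1 in the cytosol and nucleus, HSP-3 and HSP-4 in the endoplasmic reticulum (ER) and HSP-6 in mitochondria. HSP-110 exchanges the nucleotide of Hsp70, HSP-90 matures client proteins such as kinases and receptors, and HSP-60 is the mitochondrial chaperonin that folds proteins in a closed ring. CDC-48.1 and CDC-48.2 are paralogous AAA ATPases that pull ubiquitylated proteins out of complexes and membranes for the proteasome. Heat shock factor binds repeated GAA and TTC units in promoters of such genes, and the ER stress factor XBP-1 binds elements with an ACGT core.

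Of the 9 genes, 6 lay in reach of a region of the thresholded list, the 857 regions that passed the authors' irreproducible discovery rate analysis. The share over all protein-coding genes was 4.68%. The genes were cdc-48.1, hsp-60, hsp-1, hsp-3, hsp-110 and hsp-90, and each had exactly 1 such region. The others, cdc-48.2, hsp-6 and hsp-4, had only weaker candidates. At least 1 pooled candidate was in reach of all 9, but the same held for 61.7% of protein-coding genes, and for 63.0% in replicate 1 and 62.6% in replicate 3. The 6 regions had pooled signals, the region caller's enrichment value, from 52.9 to 184, while the thresholded list began at 37.9. The weakest of them was that of hsp-90 (52.9), and the strongest outside the list was that of cdc-48.2 (23.6). In the pooled list, the farthest summit counted outside a gene body was 869 bp from its gene, and the nearest left out by the distance limit were 1183 bp from hsp-4 and 1263 bp from hsp-60.

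The count depended on how regions were placed. With a limit of 500 bp, and gene bodies still counted, it was 5 genes (3.87% of all). With 250 bp or the gene body it was 3 (2.67%). Of these, hsp-90 was kept only because its summit, 377 bp from the nearest 5′ end, lay in the gene body. Counting 5′ ends alone gave 6 (4.28%), and so did the 5′ end of the gene model (4.61%) and the 428 strongest regions (2.48%). When a region went only to the gene with the nearest 5′ end, 3 genes were left (3.13%), since those of hsp-60, hsp-110 and hsp-90 went to their neighbours.

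The sequences that follow hold motifs that were found within 100 bp of the leading summits, mostly stress-response elements. They are 30 bases each, 5′ to 3′, on the plus strand of WBcel235 (ce11) as given by RefSeq. Capitals mark the match. In hsp-110 and hsp-6 it is a 3-unit heat shock element, in which GAA and TTC units alternate with 2 bases between them. In hsp-90, hsp-1, hsp-60 and cdc-48.1 it is a 2-unit heat shock element, GAANNTTC or TTCNNGAA. In hsp-3 it is the unfolded protein response element TGACGTG, here on the minus strand. The second line for hsp-1 shows a GAGA repeat (GAGAGA) on the minus strand.
hsp-110, chrIII:8447126-8447155: ggcacaccGAATATTCGAGAAacgtctagt
hsp-6, chrV:4827047-4827076: aaactcgaGAAATTTCTCGAAaaaaagaat
hsp-90, chrV:14685760-14685789: attttcgtcgaGAATTTTCcgccgaaaagg
hsp-1, chrIV:17278594-17278623: cttttcgtcgcGAACATTCtctgcggaggc
hsp-1, chrIV:17278572-17278601: gtggtgcgcgcTCTCTCTCccccttttcgt
hsp-60, chrIII:1619039-1619068: ccaaaagaagcTTCGAGAAaaaaagcagaa
cdc-48.1, chrII:10563472-10563501: ttttaaaaaagTTCACGAAattatttctaa
hsp-3, chrX:6092239-6092268: tgtccgtgggaCACGTCAgttactaggttg

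The AAA ATPase genes came first and seventh in the order of signal. At cdc-48.1 (WBGene00007352, chrII:10560036-10563407, minus strand), the region chrII:10563474-10563654 had the pooled signal 184 and rank 10 of 30000. In replicate 1 the signal was 160 (rank 6), and in replicate 3 it was 23.9 (rank 73). The summit lay 154 bp upstream of the only annotated 5′ end, between genes, and no other protein-coding 5′ end was within 1000 bp. The paralogue cdc-48.2 (WBGene00008053, chrII:8138496-8141230, plus strand) had its strongest candidate at chrII:8137439-8137814, with the pooled signal 23.6 and rank 2615. Its signal was 20.4 (rank 2249) in replicate 1 and 5.80 (rank 5388) in replicate 3. That summit was 869 bp upstream of cdc-48.2 and nearer, at 709 bp, to the divergent 5′ end of ctns-1, a cystinosin homologue. Thus cdc-48.2 ranked below cdc-48.1 in each list, and it was outside the strongest 857 regions of either library.

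The mitochondrial genes also differed in rank. The region near hsp-60 (WBGene00002025, chrIII:1619742-1625803, plus strand), chrIII:1619053-1619232, had the pooled signal 156 and rank 24. Replicate 1 gave 128 (rank 21) and replicate 3 gave 28.4 (rank 43), so this region was among the 50 strongest of both libraries. Its summit was 592 bp upstream of hsp-60 and 221 bp upstream of the divergent gene Y22D7AL.10, which RefSeq names as the mitochondrial 10 kDa heat shock protein. The chaperonin and the gene of its 10 kDa partner thus flank 1 region, within 813 bp between their 5′ ends, and the region cannot be given to either of them.

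At hsp-6 (WBGene00002010, chrV:4824124-4826760, minus strand), the mitochondrial Hsp70 gene, the libraries differed. The pooled candidate chrV:4826960-4827335 had the signal 21.3 and rank 3376. In replicate 1 the strongest candidate had the signal 9.03 and rank 17485, with a summit 436 bp upstream. In replicate 3 the strongest had the signal 8.06 and rank 2230, with a summit only 182 bp upstream. Replicate 3 also had a weaker candidate 408 bp upstream (signal 4.19, rank 11053), close to the replicate 1 summit. The strongest library summits were 254 bp apart. The median offset was 46 bp (quartiles 22 and 92) over the 839 thresholded regions with a candidate in both libraries. Those regions are stronger than the hsp-6 candidate, and no offset is given here for candidates of its rank. The pooled summit lay in exons of the noncoding genes C37H5.15 and C37H5.16, and was nearer to C37H5.5, a divergent nucleolar complex protein 3 homologue, 212 bp away.

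**Figure D1:**
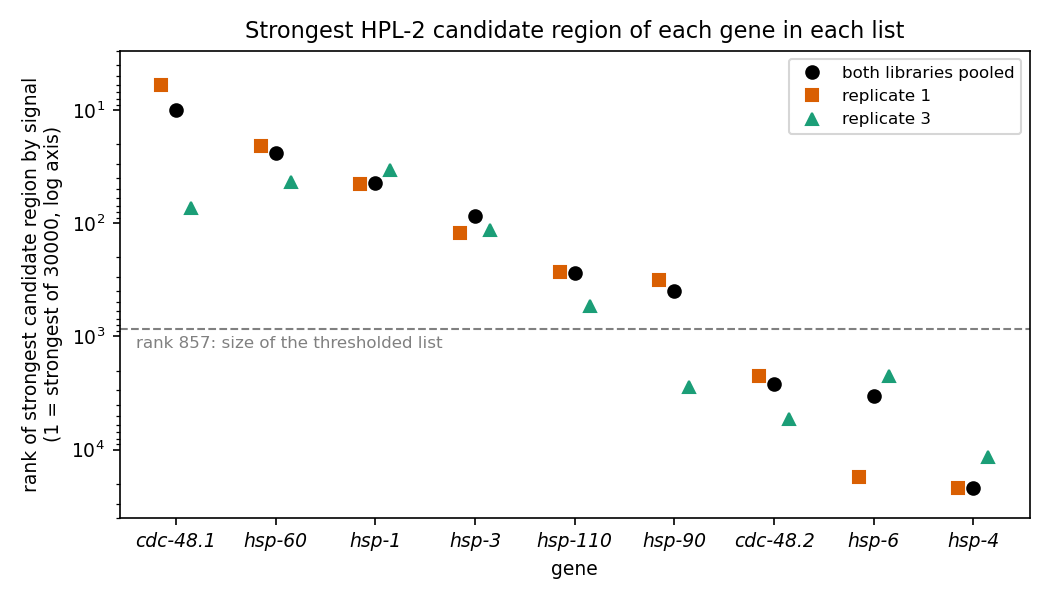
Rank of the strongest candidate region of each gene by signal (log axis, 1 at the top) in the pooled list (circles), replicate 1 (squares) and replicate 3 (triangles), with no error bars since each point is 1 list. The dashed line is the size of the thresholded list, 857: 6 genes lie above it in the pooled list and in replicate 1, and 5 in replicate 3, where hsp-90 falls below.

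Among the cytosolic chaperones, hsp-1 (WBGene00002005, chrIV:17278959-17281330, plus strand), the constitutive Hsc70 gene, had the most even ranks. The region chrIV:17278330-17278705 had the pooled signal 121 (rank 44). Replicate 1 gave 91.7 (rank 45) and replicate 3 gave 30.4 (rank 34). The summit was 441 bp upstream of hsp-1 and 16 bp from the noncoding gene F26D10.23, and the nearest other protein-coding 5′ end was that of clec-196, 981 bp away. A further summit was called 239 bp upstream of hsp-1, overlapping the first region. It had the pooled signal 20.7 (rank 3591) and the signal 12.8 in replicate 3 (rank 564). Replicate 1 had only 1 candidate there, with a summit 409 bp upstream.

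The region of hsp-110 (WBGene00016250, chrIII:8443910-8446909, minus strand), the Hsp70 nucleotide exchange factor gene, was chrIII:8446990-8447365 with the pooled signal 60.2 (rank 277). Replicate 1 gave 48.5 (rank 270) and replicate 3 gave 12.97 (rank 541). The summit was 269 bp upstream of hsp-110 and 175 bp upstream of rpn-3, which encodes a regulatory subunit of the 26S proteasome and is transcribed the other way. The 5′ ends of the pair are 444 bp apart, and the noncoding gene C30C11.14 is 83 bp from the summit. As at hsp-60, the region lay nearer to the neighbour.

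At hsp-90 (WBGene00000915, chrV:14684918-14688545, plus strand), the region was inside the gene. The region chrV:14685595-14685970 had the pooled signal 52.9 (rank 396), the weakest of the 6. Its signal was 45.4 in replicate 1 (rank 319) and 7.41 in replicate 3 (rank 2823), so only replicate 1 placed it among its strongest 857 regions. The summit lay in the first intron of the long transcript, 865 bp after the first 5′ end and 377 bp before the second, where the short transcript begins. It was 298 bp upstream of C47E8.4, a FAM50 homologue on the other strand. Many worm transcripts are trans-spliced, so an annotated 5′ end can be a splice site, and which 5′ end marks initiation here was not measured.

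The ER Hsp70 genes, which encode the worm BiP proteins, stood far apart. At hsp-3 (WBGene00002007, chrX:6089028-6092124, minus strand), the region chrX:6092028-6092403 had the pooled signal 89.0 and rank 87. Replicate 1 gave 63.8 (rank 121) and replicate 3 gave 21.1 (rank 114). The summit was 92 bp upstream, the closest of the 9 to a 5′ end of its gene, and the neighbour C15H9.5 began 1084 bp away. A much weaker candidate also lay upstream of hsp-3 in the pooled list and in replicate 3.

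At hsp-4 (WBGene00002008, chrII:7350112-7352645, minus strand), the paralogue that is strongly induced by ER stress, no pooled candidate was within 1000 bp of a 5′ end. The only candidate in the body, chrII:7350058-7350433, had the signal 9.49 and rank 21802, and it lay in an exon 134 bp from the 3′ end. In replicate 1 the only candidate lay 655 bp upstream (signal 8.04, rank 21964) and did not overlap the pooled one. In replicate 3 the only candidate overlapped the pooled one inside the gene (signal 4.09, rank 11576). A pooled summit 1183 bp upstream, just outside the distance limit, had rank 11911.

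**Figure D2:**
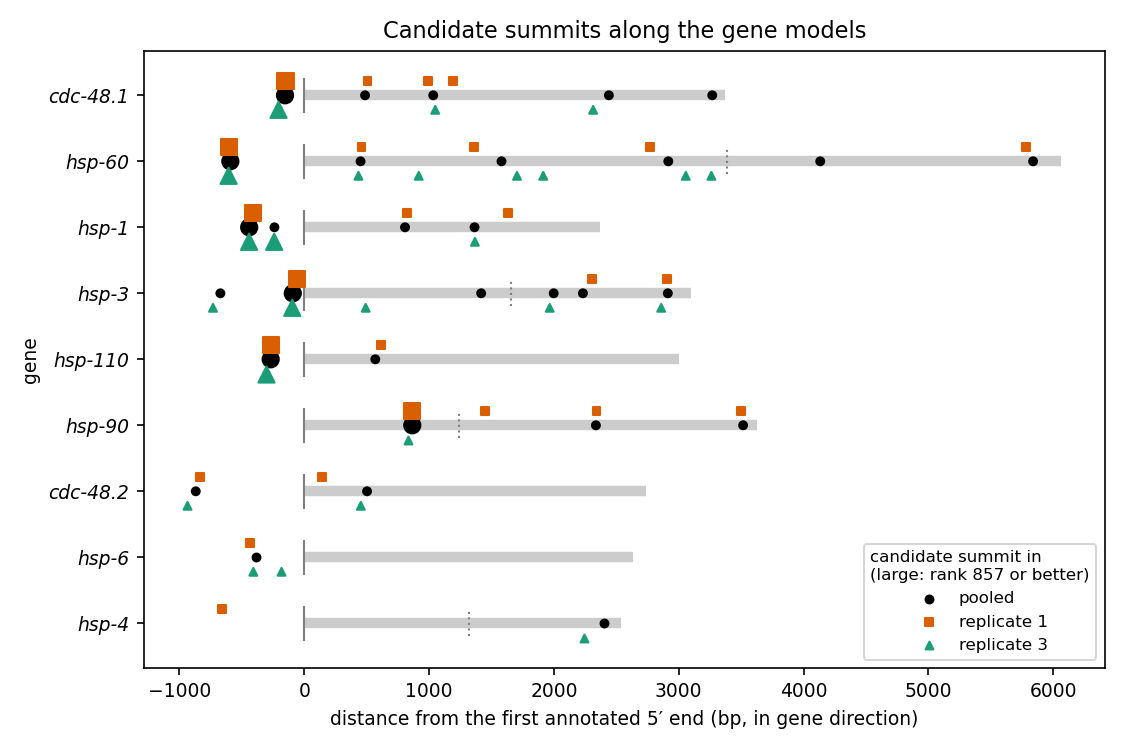
Summits of all candidate regions in reach of each gene, against the distance from the first annotated 5′ end in gene direction (bp), for the pooled list (circles), replicate 1 (squares) and replicate 3 (triangles); grey bars are gene bodies, and dotted ticks mark the last alternative 5′ end. Large symbols have rank 857 or better: they sit upstream of the gene body, except at hsp-90, where they lie 865 bp inside it.

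The strongest candidate of each gene, which leads by definition, is set here beside the other candidates of the same gene. In the pooled list the 9 genes had 30 candidates, of which 21 were not the strongest of their gene. These had signals from 8.34 to 20.7 and ranks from 3591 to 27432, with 19 in gene bodies, where the leading regions of hsp-90 and hsp-4 also lay. The leading signal was 11.3 times the next at hsp-60, 9.10 times at cdc-48.1, 5.83 times at hsp-1, 4.96 times at hsp-3, 3.68 times at hsp-110 and 3.44 times at hsp-90. At cdc-48.2 it was 1.93 times, and hsp-6 and hsp-4 had a single pooled candidate each. In replicate 1 and in replicate 3, 25 candidates were in reach.

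The 6 thresholded regions lay 92 to 592 bp upstream of the nearest 5′ end of their gene. Over the 599 thresholded regions with a protein-coding 5′ end no more than 1000 bp away, 89.5% were upstream of the nearest one, at a median of −197 bp. The nearest 5′ end belonged to another gene for 5 of the 9 leading regions, those of hsp-60, hsp-110, hsp-90, cdc-48.2 and hsp-6. In all 5 the neighbour was on the other strand and the summit lay upstream of both genes, except that at hsp-90 it was upstream of the second 5′ end only. By another measure, 42.9% of the 599 regions were in reach of the 5′ ends of more than 1 protein-coding gene. Of the thresholded regions here, those of hsp-60, hsp-1, hsp-110 and hsp-90 were, and those of cdc-48.1 and hsp-3 were not. No share over all regions is given here for the 5 of 9.

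A candidate in the last 250 bp of the gene body was a weak feature of the pooled list, picked out after its values were seen. It occurred in 5 of the 9 genes, against 8.02% of protein-coding genes. These were hsp-3 (signal 17.9), hsp-90 (15.4), cdc-48.1 (13.6), hsp-60 (9.59) and hsp-4 (9.49, its only pooled candidate and so its leading region). In single libraries only hsp-3 and hsp-90 had it in replicate 1 (7.78% of genes) and only hsp-3 in replicate 3 (8.02%).

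The libraries shared most of the genes but not their order. Of the 9 genes, 6 were in reach of the strongest 857 regions of replicate 1 (4.56% of protein-coding genes) and 5 of those of replicate 3 (4.30%). The 5 shared by both libraries were cdc-48.1, hsp-60, hsp-1, hsp-3 and hsp-110, and 2.32% of all genes were in reach in both. For regions overlapping the pooled one, cdc-48.1 had rank 73 in replicate 3 against 6 in replicate 1. The ratio of the replicate 3 rank to the replicate 1 rank was 8.85 at hsp-90, 0.942 at hsp-3 and 0.756 at hsp-1. The median ratio over the 839 thresholded regions was 1.75, with quartiles of 0.629 and 5.16, so the ratios of cdc-48.1 and hsp-90 lay beyond the upper quartile. Summits of the libraries were 3 bp apart at hsp-60 and 33 to 56 bp apart at the other 5 thresholded regions.

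Ordered by their strongest pooled signal, 12338 protein-coding genes with a candidate could be ranked. The order was 7 for cdc-48.1, 18 for hsp-60, 44 for hsp-1, 97 for hsp-3, 326 for hsp-110, 461 for hsp-90, 2347 for cdc-48.2, 2877 for hsp-6 and 10433 for hsp-4. The median rank of the leading region was 277 over the 9 genes and 9497 over all 12338. In replicate 1 these medians were 270 and 9889, and in replicate 3 they were 541 and 9628. These orders were known when the genes were chosen.

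**Figure D3:**
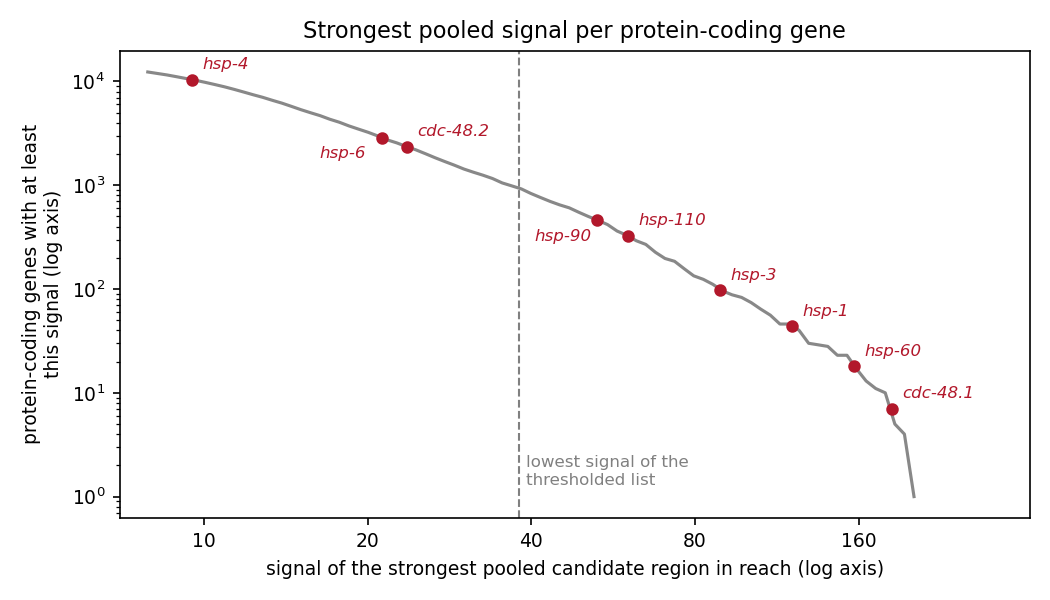
Number of protein-coding genes (log axis) whose strongest pooled candidate region has at least the signal on the x axis (log axis); the grey line covers 12338 genes, and points mark the 9 genes at their own order. From cdc-48.1 (order 7, signal 184) to hsp-90 (order 461, signal 52.9), 6 points lie right of the dashed line, the lowest thresholded signal of 37.9, and 3 lie left of it.

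The regions most like those of cdc-48.1 and hsp-1 were sought among 588 thresholded promoter regions by the distance of log2 signals over the 3 lists. Closest to cdc-48.1 was the region at rpl-3, a ribosomal protein gene (distance 0.15 on the log2 scale), then that between Y22D7AL.10 and hsp-60 (0.47) and that at Y17G9B.5 (0.49). Closest to hsp-1 were the regions at tag-340 (0.16), nipi-3 (0.17) and mig-5 (0.19), a dishevelled homologue. The mig-5 region is also in reach of cct-1, a subunit of the cytosolic chaperonin.

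The sequence around the leading summits varied widely. Within 100 bp of the summit, GC content was 43.1% ± 8.10 (SD over 9 regions), and it ran from 32.8% at cdc-48.1 to 59.2% at hsp-3. The mean was 35.1% over the 30000 pooled candidates and 42.6% over the thresholded list. Masked repeats covered 43.8% of the window at cdc-48.1, 47.8% at hsp-110 and 0% at hsp-3. Their mean was 25.6% over the 9 regions, 35.7% over the pooled candidates and 24.6% over the thresholded list. In each of the 9 regions, all stretches of 36 bases were found once in the genome, so no leading region shares such a stretch with a paralogue. The read length is not given in the sources used here.

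Heat shock elements of 2 units were within 100 bp of 6 of the 9 leading summits, those of cdc-48.1, hsp-60, hsp-1, hsp-110, hsp-90 and hsp-6. Such an element was present at 25.1% of pooled candidates and at 16.8% of thresholded regions. The closest to a summit was that of hsp-90, which began 12 bp before it on the plus strand, and that of hsp-60 began 100 bp before its summit. The 3-unit form, which contains the 2-unit forms, was searched for only after the sequences had been seen. It occurred at hsp-110, 44 bp before the summit, and at hsp-6, 93 bp before it, against 1.43% of pooled candidates and 1.28% of thresholded regions.

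Other 3-unit elements lay in the promoters but away from the summits, which is why they are shown here. The promoter was read from 250 bases before to 50 after the first 5′ end, and 3 of the 9 genes had the 3-unit element there, against 1.97% of protein-coding genes. They were hsp-110 itself, hsp-1 (starting 144 bp before its 5′ end) and hsp-90 (85 and 15 bp before the first 5′ end, the former shown). The 2-unit element was in 5 of the 9 promoters and in 32.5% of all. Both sequences are in gene direction on the plus strand of ce11.
hsp-1, chrIV:17278807-17278836: cgaaattcGAATTTTCTAGAAtcccgccac
hsp-90, chrV:14684825-14684854: aacagtttTTCTCGAATGTTCtacaaaaat

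The unfolded protein response element marked the promoters of both ER genes. TGACGTG was found, on either strand, in the promoters of hsp-3 and hsp-4 and of none of the other 7 genes, against 2.93% of all promoters. At hsp-3 it began 132 bp before the 5′ end and 34 bp from the summit of the thresholded region. At hsp-4 it began 83 bp before the 5′ end, in a promoter without any pooled candidate. The hsp-4 match is shown in gene direction, on the minus strand of ce11. The hsp-3 line above is on the plus strand, against the direction of its gene. In gene direction the word reads TGACGTG at hsp-3 and CACGTCA at hsp-4, so the matches have opposite orientations. Of pooled candidates 1.78% had this element within 100 bp of the summit, and of thresholded regions 3.03%.
hsp-4, chrII:7352710-7352739: cagcactaataCACGTCAtctccgataagt

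Of the other motifs reported here, the GAGA repeat was within 100 bp of the summit at hsp-1 alone, 65 bp away. The shares were 14.3% of pooled candidates and 37.9% of thresholded regions. The TATA box (TATAAA on either strand) was within 100 bp at cdc-48.1 and hsp-3, against 21.5% and 15.2% in the same order. Within 200 bp, the GAGA repeat was at 3 of the 9 summits, against 24.4% and 47.5%. The TATA box was then at 4 of the 9, against 38.8% and 35.0%. No motif searched for was within 100 bp of the leading summits of cdc-48.2 and hsp-4. A match of letters is not a bound site.

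The wider folding network was described with 7 lists of related genes, together 93 genes, of which 20 were in reach of a thresholded region. When a region went only to the gene with the nearest 5′ end, 12 genes were left (3.13% of all protein-coding genes). Against the 4.68% of all protein-coding genes, cochaperones had the largest share of the 7 lists, with 8 of 20. They were bag-1 (signal 82.2), dnj-14 (63.3), ahsa-1 (55.4), dnj-19 (55.3), dnj-12 (46.9), dnj-9 (43.6), dnj-13 (41.9) and pph-5 (39.2). The regions of dnj-14, ahsa-1, dnj-19, dnj-12 and pph-5 are shared with glit-1, C01G10.7, nhr-47, mtx-1 and Y39B6A.3, in that order. That of dnj-13 is shared with F54D5.9 and dhgd-1. The dnj genes encode J-domain proteins, which are partners of Hsp70, bag-1 an Hsp70 nucleotide exchange factor, and ahsa-1 and pph-5 an activator and a phosphatase of the HSP-90 cycle. The overlapping regions of bag-1, dnj-13 and pph-5 ranked only 3785, 6790 and 9287 in replicate 3, and 4 of the 8 genes were in reach of the strongest 857 regions of both libraries.

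Of the 18 genes of ER folding and the unfolded protein response, 6 were in reach. These were pdi-3 (signal 109) and pdi-6 (52.7), disulfide isomerase genes, and crt-1 (47.6), the calreticulin gene. The others were enpl-1 (39.3), the ER Hsp90 gene, and the stress factor genes xbp-1 (86.0) and atf-6 (61.3). The region of pdi-3, 621 bp upstream of it, is shared with ubql-1, and that of enpl-1 is shared with imp-2. The xbp-1 summit was 28 bp upstream of its 5′ end, with ranks of 103 in replicate 1 and 92 in replicate 3.

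The cytosolic chaperonin and prefoldin genes had 3 of 14 in reach: cct-1 (128), cct-8 (105) and pfd-1 (51.8). Their regions are shared with mig-5, Y55F3AR.2 and F01G4.6, in that order. CDC-48 cofactors had 1 of 11, ufd-3 (40.2), whose region is shared with C05C10.5. Mitochondrial folding and proteolysis genes had 1 of 9, Y22D7AL.10, through the region it shares with hsp-60.

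Inducible and small heat shock genes had 1 of 17 in reach, a share of 5.88%, near that of all genes. It was hsp-12.3, in reach of a pair of regions (85.4 and 42.9) that also lie at F38E11.9. Both summits were downstream of the hsp-12.3 5′ end. The stronger was 888 bp after it, past the gene body, and the weaker 685 bp after it, inside the body. The hsp-16 genes occur in near-identical copies, and whether reads were split between them was not tested. Of the genes controlling heat shock factor 0 of 4 were in reach, which, over 4 genes, limits the share little. Within the same rule, 10 of 33 proteasome subunit genes and 55 of 80 ribosomal protein genes were in reach. Differences between these lists were not tested.

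**Figure D4:**
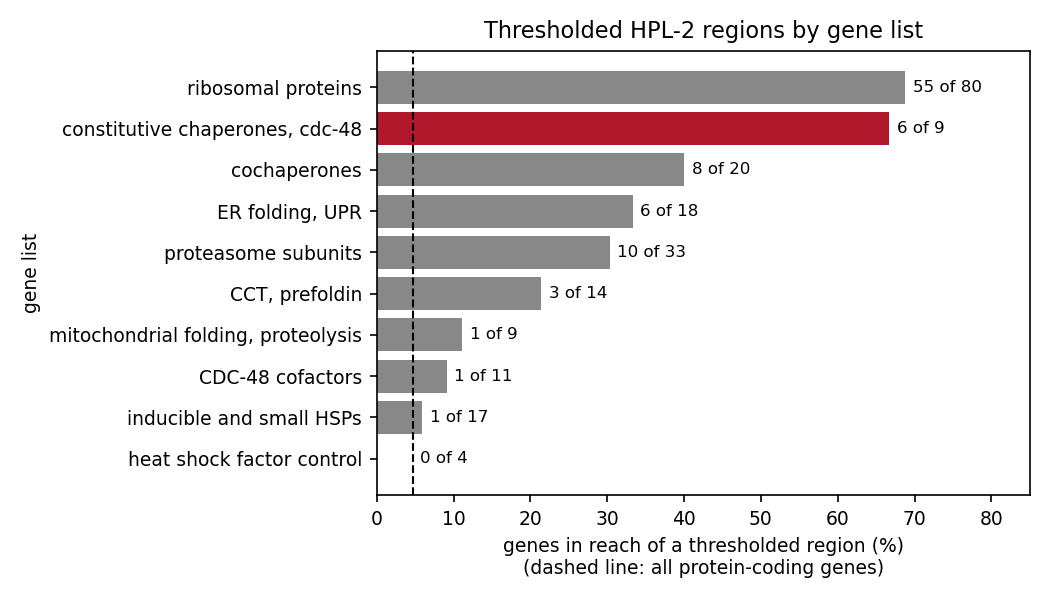
Share of genes in reach of a thresholded region (%) for the 9 genes (red) and for other gene lists (grey), with the counts beside the bars and no error bars since genes are not replicates. The dashed line is the 4.68% of all protein-coding genes: 6 of 9 constitutive chaperone and cdc-48 genes were in reach, against 55 of 80 ribosomal protein genes and 1 of 17 inducible and small heat shock genes.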

How the data were processed

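Each library and the pool of both had a list of 30000 candidate regions, and the thresholded list held 857. Per the deposited file listings, regions were derived from ce11 alignments and 1 control file. Aligner, caller and thresholds: not given in the sources used here. The authors deposited for each region a signal, the caller's enrichment value, and the −log10 of a q-value, which is tied for most of the thresholded list and was not used to rank. Regions were ranked by signal within a list, because the scale is not shared between lists. The thresholded list is the top 857 of the pooled list. Lists on ce10 were not used.

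Coordinates are 1-based on ce11, the sequence of WBcel235. Genes came from Ensembl release 115, and sequence, masking and product names from RefSeq. Of the listed related genes, hsp-16.11, hsp-16.49 and hsf-2 had no match by name. Placement and motif searches ran in Python 3.11.15 with numpy 2.4.6 and pandas 2.3.3, and were tested on simulated data. The 3-unit element was added after the sequences had been seen. Library regions were matched to pooled ones by an overlap of at least 1 bp. All 9 genes are named, as are related genes with a thresholded region, nearest neighbours, and the 3 regions closest in signal to cdc-48.1 and hsp-1. The genes, lists and alternatives were chosen with earlier results of these data known. No test was run, since 2 libraries of 1 group allow none between conditions. Other distance limits, placements, thresholds and windows were tried, and each library was left out. No read counts were analysed, so depth and its precision are unknown. Results for 1 of the motifs searched are not reported here.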

Additional observations from a re-analysis of the deposited data

How the results depend on the processing

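Alternatives left 6 of 9 genes in reach of a thresholded region with only 5′ ends counted, with gene-model 5′ ends, and among the 428 strongest regions (2.48% of all genes). Gene bodies were still counted with the 500 bp and 250 bp limits. With the 500 bp limit the count was 5. With the 250 bp limit it was 3 (hsp-3, cdc-48.1 and, through its gene body, hsp-90, against 2.67% of genes). It was also 3 when only the gene with the nearest 5′ end was counted (cdc-48.1, hsp-1 and hsp-3, against 3.13%). Leaving out a library gave 5 to 6. For the 93 related genes the count of 20 was 11 with the 250 bp limit, 12 with the nearest gene only and 13 among the 428 strongest regions, and 18 to 21 without a library. The median leading region stood at the top 0.923% of the pooled list, and at 0.900% to 1.80% without a library. Within 500 bp, hsp-60 dropped from the top 0.0800% to 32.3%, since its region is 592 bp away. Candidates of both libraries overlapped 8 of 9 leading regions, against 37.9% of pooled candidates and 839 of the 857 thresholded regions. Since 6 of the 9 are thresholded regions, which had passed the reproducibility analysis, a high count was built in and is no separate support. With an overlap of at least 50% the count was 8, against 25.3%, and hsp-6 was then matched in replicate 3 by its weaker candidate (rank 11053). Heat shock elements within 200 bp were at 8 of 9, against 43.1% of pooled candidates and 34.1% of thresholded regions. No paired analysis was possible because there is 1 group. Unknown depth limits what a missing candidate can show.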
